A study of Mus musculus with 6 samples.

Results

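Glycolysis turns glucose into pyruvate and lactate, and its transporters and enzymes belong to the classical transcripts that rise when oxygen is scarce. In low oxygen the hypoxia-inducible factors, which pair an oxygen-labile alpha subunit with the stable Arnt protein, bind DNA at a short core sequence and raise genes for glucose use, blood vessel growth, pH control and collagen processing. Tumor cells often run this program with oxygen present, and collagen prolyl and lysyl hydroxylases are among its best-known targets in breast carcinoma.

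A list of 41 mouse genes was examined, 23 of glycolysis and lactate export and 18 other genes known to be induced by hypoxia, and its members were matched by gene symbol. A gene was measured where the array held a transcript cluster (a set of probes summarized to 1 value) with that gene as its only symbol, and where several qualified, the one brightest on average over the 6 arrays stood for it. That left 36 members, 20 of glycolysis and 16 other hypoxia-induced genes, of 22180 genes with such a cluster. No single-symbol cluster was matched to Gpi1 or Eno1, and the clusters of Aldoa, Loxl2 and Ankrd37 were shared with Aldoart1, Gm21451 and Lrp2bp, so these 5 genes were not measured here. Of the 36 members, 32 had a mean signal above the median gene and 12 lay above the 95th percentile.

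The arrays came from D2.OR cells, a mouse mammary tumor line whose cells stay latent after they disseminate, grown for 7 days in 3D-culture on a basement membrane extract. BORG/sgTRIM28 cells expressed the long noncoding RNA BORG and were targeted with Cas9 and a guide RNA (sgRNA) against TRIM28, a transcriptional corepressor that binds BORG. BORG cells expressed the same RNA without that guide, and parental cells carried an empty vector. BORG was introduced as a stable transgene under G418 selection, and the guide by a lentivirus under puromycin selection. Each of the 3 groups had 2 arrays, titled biological replicates, and no source used here says whether a line was 1 clone, whether the cells without sgTRIM28 carried another guide, or whether these lines held the luciferase reporter that the methods describe for D2.OR cells. The values are log2 signals, so a difference of 1 is a doubling of signal, and signal over background is unknown for single arrays.

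Trim28 itself had log2 signals of 9.50 and 9.53 in BORG/sgTRIM28 cells, 9.88 and 9.96 in BORG cells and 10.49 and 10.68 in parental cells. A frameshift made by a guide can leave the amount of RNA as it was, so these signals check the labels only weakly. In BORG/sgTRIM28 cells the differences of -0.41 from BORG cells and -1.07 from parental cells did not pass (adjusted p = 0.0911 and 0.0580 from limma). BORG cells were themselves lower than parental cells, with a difference of -0.67 (standard error 0.12, adjusted p = 0.0271 from limma). The keratin genes Krt8, Krt14 and Krt18 lay between 9.55 and 11.37 on all arrays, whereas the epithelial adhesion gene Epcam lay between 4.68 and 5.01, below the median of every array. Of 7 epithelial genes, those 3 keratins differed, higher in BORG than in parental cells and lower in BORG/sgTRIM28 than in BORG cells. Among markers of other cell types, 0 of 11 leukocyte and 0 of 7 endothelial genes passed in any comparison (limma, adjusted p under 0.05). Of 5 adipocyte genes 1, Fabp4, passed, in BORG/sgTRIM28 against BORG cells. Over all genes with 1 symbol, 5.75% were higher and 3.95% lower in BORG against parental cells. The leukocyte differences from parental cells ran from -1.48 to 0.04 in BORG cells and from -1.33 to 0.13 in BORG/sgTRIM28 cells. With 2 arrays per group, not passing does not show that the groups were alike. In BORG against parental cells, 2 leukocyte genes and 1 endothelial gene had an unadjusted p under 0.05 by limma, and 1 and 0 did by the methods' t-test. Of 9 fibroblast genes 3 differed between BORG and parental cells, the receptor genes Pdgfra (lower) and Pdgfrb (higher) and the collagen gene Col1a1 (higher).

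The promoters of 5 members that rose together in BORG cells are shown first, with that of Ldha, whose rise passed only under some alternatives. They are RefSeq sequences of assembly GRCm38.p6, each from 250 bases before to 50 bases after an annotated start, written 5′ to 3′ on the gene's strand. Capitals mark the letters ACGTG and GCGTG, the core of the hypoxia response element, where they occur on either strand, so that a match on the opposite strand reads CACGT or CACGC. Slc2a1, Pfkp, P4ha2 and Plod1 rose in BORG cells and held such letters, P4ha3 rose and held none, and Ldha held the most of the 6.
Slc2a1, chr4:119108495-119108794: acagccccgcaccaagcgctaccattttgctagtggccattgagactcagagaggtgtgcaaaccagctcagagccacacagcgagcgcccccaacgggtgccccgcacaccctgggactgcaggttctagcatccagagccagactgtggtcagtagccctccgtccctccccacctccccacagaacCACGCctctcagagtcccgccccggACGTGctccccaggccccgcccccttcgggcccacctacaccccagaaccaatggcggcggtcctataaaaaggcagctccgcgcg
Pfkp, chr13:6648722-6649021: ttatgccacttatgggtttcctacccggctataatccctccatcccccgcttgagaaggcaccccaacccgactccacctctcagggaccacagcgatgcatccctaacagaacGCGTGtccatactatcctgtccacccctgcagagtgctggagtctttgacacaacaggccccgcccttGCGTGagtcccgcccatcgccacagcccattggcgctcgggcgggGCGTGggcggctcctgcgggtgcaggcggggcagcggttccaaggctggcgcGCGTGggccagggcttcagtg
P4ha2, chr11:54100674-54100973: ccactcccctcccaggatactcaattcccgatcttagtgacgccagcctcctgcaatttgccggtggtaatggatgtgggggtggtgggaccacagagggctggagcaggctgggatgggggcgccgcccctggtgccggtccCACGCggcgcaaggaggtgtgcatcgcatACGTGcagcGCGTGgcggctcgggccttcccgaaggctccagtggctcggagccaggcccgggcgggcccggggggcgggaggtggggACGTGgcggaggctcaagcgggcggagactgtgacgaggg
Plod1, chr4:147936727-147937026: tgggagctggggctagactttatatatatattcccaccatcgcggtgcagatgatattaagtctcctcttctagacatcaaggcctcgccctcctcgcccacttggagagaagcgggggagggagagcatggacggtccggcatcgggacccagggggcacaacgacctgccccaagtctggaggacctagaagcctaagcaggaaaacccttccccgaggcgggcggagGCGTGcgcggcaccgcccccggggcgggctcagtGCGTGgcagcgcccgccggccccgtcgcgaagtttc
P4ha3, chr7:100285270-100285569: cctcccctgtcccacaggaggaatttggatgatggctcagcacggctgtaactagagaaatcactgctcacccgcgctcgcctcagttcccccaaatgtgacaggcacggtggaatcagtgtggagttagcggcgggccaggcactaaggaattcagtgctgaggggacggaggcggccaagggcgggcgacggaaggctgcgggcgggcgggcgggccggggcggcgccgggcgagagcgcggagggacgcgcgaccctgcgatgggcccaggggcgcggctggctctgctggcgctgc
Ldha, chr7:46845554-46845853: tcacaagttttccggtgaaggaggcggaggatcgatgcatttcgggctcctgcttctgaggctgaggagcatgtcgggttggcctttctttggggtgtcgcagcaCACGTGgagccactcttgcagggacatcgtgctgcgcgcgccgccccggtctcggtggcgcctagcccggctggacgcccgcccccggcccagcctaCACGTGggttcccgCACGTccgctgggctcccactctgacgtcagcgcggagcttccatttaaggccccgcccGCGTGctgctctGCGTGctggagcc

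Slc2a1 and P4ha2 lie on the + strand of the chromosome, as do P4ha3 and Ldha, and Pfkp and Plod1 lie on the - strand. The P4ha2 window held 4 matches, 2 of ACGTG and 2 of GCGTG, and the Pfkp window held 4 of GCGTG. The Ldha window held 7, of which 4 came from 2 copies of the palindrome CACGTG, which reads ACGTG on both strands and is also the recognition sequence of other basic helix-loop-helix factors. Over the table, 35 of the 41 listed genes had a promoter and 29 of these (82.9%) held a match in at least 1 of their windows, against 12628 of 27025 genes (46.7%). Among genes with exactly 1 listed promoter, 17 of 23 members (73.9%) held a match, against 43.1% of 22862 genes. Member windows were richer in G and C, with a median of 63.3% against 52.7% over all windows and 21 CG pairs against 7, and both motifs contain CG. Of the members that rose in BORG cells, 7 of 10 with a promoter held a match, against 22 of the 25 other listed genes. Those 25 include Aldoa, Eno1 and Ankrd37, with a match, and Gpi1, without one, which were not measured on the arrays. The windows of Eno2, P4ha3 and Gys1, which rose, held none, and neither did those of Tpi1, Gpi1 and Gbe1. A match is a run of letters and not a bound site.

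To ask what BORG expression changed, BORG cells were compared with parental cells. Among the members, 5 collagen hydroxylase genes rose, with P4ha2 at the top by 2.02 on the log2 scale, all 3 genes of phosphofructokinase, which commits sugar to glycolysis, rose by 0.85 to 1.51, and the glucose transporter gene Slc2a1, the enolase gene Eno2 and the glycogen synthase gene Gys1 completed the set. Of 36 members 11 were higher, against 5.75% of all genes with 1 symbol, and 1 was lower, against 3.95% (limma, adjusted p under 0.05). Since bright genes passed more often, the shares among the 11090 genes above the median signal were 10.8% higher and 7.44% lower. The median log2 difference was 0.53 over the 20 glycolysis members and 0.27 over the 16 others, against -0.03 over all genes. RNA came from whole cultures, so fewer cells with high expression and less RNA per cell cannot be told apart. Without parental replicate 1, and likewise without parental replicate 2, 1 member (Plod1) passed, a fit in which the lone parental array was assumed to vary like the other groups. Without BORG replicate 1, 8 members were higher and 0 lower. With all arrays, the methods' t-test after Benjamini-Hochberg adjustment called 0 clusters, and when 1 cluster per gene was tested in place of all 41345 clusters, 17 were higher and 2 lower.

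**Figure D1:**
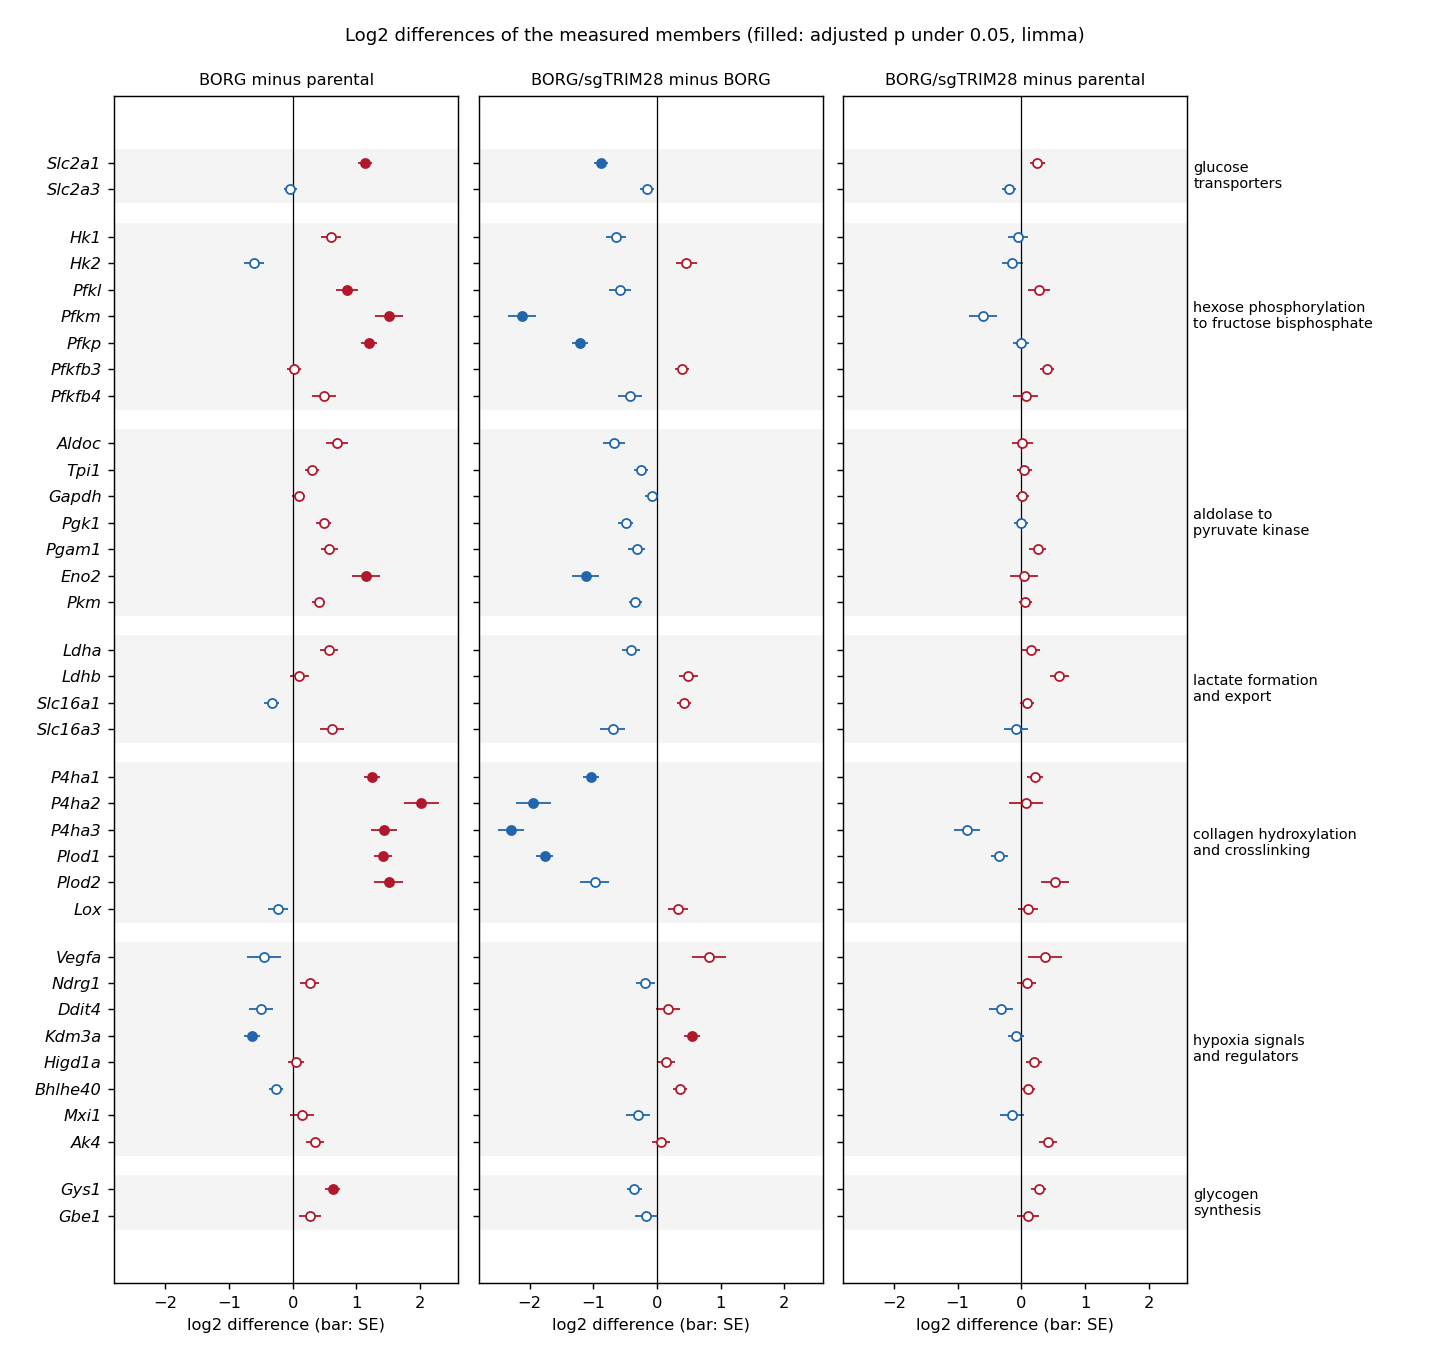
Log2 difference (horizontal axis, bars show the standard error) of each of the 36 measured members in BORG minus parental, BORG/sgTRIM28 minus BORG and BORG/sgTRIM28 minus parental cells, grouped by role. Filled points passed an adjusted p under 0.05 (limma), 12 in the left panel, 9 in the middle and 0 on the right.

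Glucose enters cells through facilitative transporters. Slc2a1 (GLUT1, the basal glucose transporter) had log2 signals of 11.55 and 11.71 in BORG cells, against 10.47 and 10.52 in parental cells. Both BORG arrays lay above both parental arrays, and the difference was 1.13 (standard error 0.11, adjusted p = 0.00534 from limma). A second, dimmer Slc2a1 cluster differed by 0.42 (standard error 0.16) and did not pass. Slc2a3 (GLUT3, a high-affinity transporter) read between 3.85 and 4.13 on all arrays and differed by -0.04 (95% interval -0.30 to 0.23).

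The next steps phosphorylate glucose and then fructose 6-phosphate. Pfkm, the muscle-type phosphofructokinase, had log2 signals of 8.40 and 7.80 in BORG cells, against 6.61 and 6.57 in parental cells, a difference of 1.51 (standard error 0.22, adjusted p = 0.0158 from limma). Pfkp, the platelet-type enzyme, had 10.42 and 10.22 in BORG cells and 9.07 and 9.17 in parental cells, a difference of 1.21 (standard error 0.13, adjusted p = 0.0060 from limma). Pfkl, the liver-type enzyme, had 10.73 and 10.25 in BORG cells and 9.59 and 9.68 in parental cells, a difference of 0.85 (standard error 0.18, adjusted p = 0.0435 from limma). For these 3 paralogues the groups did not overlap, and BORG replicate 1 was the highest array of each. The call of Pfkl was lost without BORG replicate 1, where the difference was 0.61 (adjusted p = 0.0882 from limma). Pfkfb3 and Pfkfb4, which make and remove the phosphofructokinase activator fructose 2,6-bisphosphate, differed by 0.02 and 0.49 and did not pass.

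The 2 hexokinase genes had differences of opposite sign, and neither passed. Hk1, the housekeeping hexokinase, had log2 signals of 8.95 and 8.54 in BORG cells, against 8.12 and 8.17 in parental cells (difference 0.60, standard error 0.16, adjusted p = 0.0855 from limma). Hk2, the inducible hexokinase and a textbook hypoxia target, had 7.88 and 8.32 in BORG cells, against 8.67 and 8.73 in parental cells (difference -0.61, standard error 0.16, adjusted p = 0.0897 from limma). Both passed when 1 cluster per gene was tested, with limma's adjusted p of 0.0316 for Hk1 and 0.0335 for Hk2.

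From aldolase to pyruvate kinase, all 7 measured genes had a positive difference and 1 passed. Eno2, the neuronal-type enolase, had log2 signals of 8.99 and 8.43 in BORG cells, against 7.46 and 7.65 in parental cells, a difference of 1.16 (standard error 0.22, adjusted p = 0.0339 from limma). Its call, like that of Pfkl, was lost when any array but BORG replicate 2 was left out. The others differed by 0.09 (Gapdh, glyceraldehyde phosphate dehydrogenase), 0.30 (Tpi1, triose phosphate isomerase), 0.41 (Pkm, pyruvate kinase), 0.49 (Pgk1, phosphoglycerate kinase), 0.58 (Pgam1, phosphoglycerate mutase) and 0.70 (Aldoc, the brain-type aldolase), with the 2 BORG arrays above the 2 parental arrays for each. Complete separation with higher BORG arrays was found in 24.7% of all genes and in 23 of the 36 members. Among genes above the median signal the share was 34.0%. Gapdh signals are uncertain because many other clusters are shared between Gapdh and its pseudogenes. The second cluster of Pgam1 differed by 0.58 as well, and did not pass. Aldoc, Pgk1, Pgam1 and Pkm passed where 1 cluster per gene was tested.

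At the end of the pathway 0 of 4 genes passed in either direction by limma, with 3 at an unadjusted p under 0.05 by limma and 0 by the methods' t-test. Ldha, the lactate dehydrogenase subunit that favours lactate formation, had 8.50 and 8.16 in BORG cells, against 7.79 and 7.73 in parental cells (difference 0.57, standard error 0.14, adjusted p = 0.0753 from limma). Ldha passed when 1 cluster per gene was tested, with limma's adjusted p of 0.0271. Ldhb, the heart-type subunit, differed by 0.10. The 2 monocarboxylate transporters of lactate had opposite signs, 0.61 for the exporter Slc16a3 (MCT4, standard error 0.19) and -0.33 for Slc16a1 (MCT1, standard error 0.11).

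In the list of collagen hydroxylation and crosslinking, 5 of 6 measured genes rose, with a median difference of 1.43 over the 6. P4ha2, 1 of the 3 catalytic subunits of collagen prolyl 4-hydroxylase, had log2 signals of 8.83 and 7.98 in BORG cells, against 6.31 and 6.46 in parental cells, a difference of 2.02 (standard error 0.27, adjusted p = 0.0133 from limma) or 4.06-fold. P4ha3, a second such subunit, had 9.09 and 8.52 in BORG cells, against 7.43 and 7.31 in parental cells, a difference of 1.44 (standard error 0.20, adjusted p = 0.0152 from limma). P4ha1, the remaining one, had 10.22 and 9.97 in BORG cells, against 8.83 and 8.86 in parental cells, a difference of 1.25 (standard error 0.13, adjusted p = 0.00549 from limma). All 3 subunits were higher on both BORG arrays than on either parental array.

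The lysyl hydroxylase genes Plod1 and Plod2, whose products prepare collagen for crosslinking, rose as well. Plod1 had log2 signals of 10.61 and 10.31 in BORG cells, against 9.04 and 9.04 in parental cells, a difference of 1.42 (standard error 0.14, adjusted p = 0.00442 from limma). Plod2, the telopeptide lysyl hydroxylase, had 7.56 and 6.89 in BORG cells, against 5.70 and 5.73 in parental cells, a difference of 1.51 (standard error 0.23, adjusted p = 0.0175 from limma). Lox, the lysyl oxidase that crosslinks the hydroxylated chains, averaged 3.84 ± 0.23 in BORG cells and 4.07 ± 0.17 in parental cells (SD, n = 2 each), among the dimmest members, and did not pass (difference -0.23, standard error 0.15). Col1a1 was higher alongside them, with 10.27 and 9.94 in BORG cells and 8.93 and 8.91 in parental cells. Dcn and Lum, further fibroblast genes, read at most 3.92 and 3.53 on any array. The highest fibroblast signal was 12.28 and 12.29 on the parental arrays and 10.93 and 11.15 on the BORG arrays. On the BORG/sgTRIM28 arrays it was 12.02 and 12.04. Pdgfra was lower and Pdgfrb higher in BORG cells, and the part of these genes in the collagen result was not tested.

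**Figure D2:**
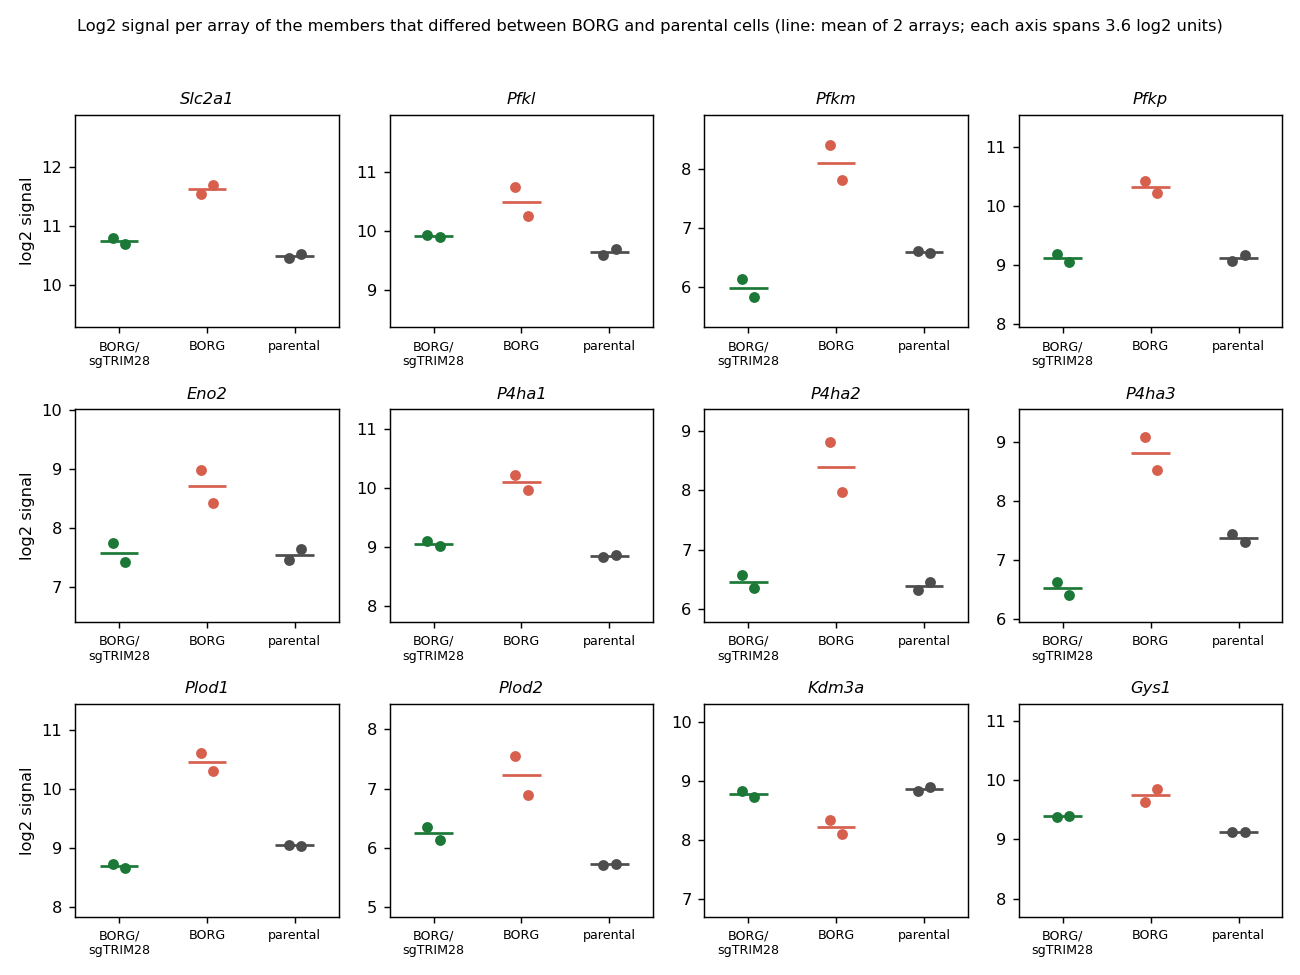
Log2 signal on each array (vertical axis, each spanning 3.6 units) of the 12 members that differed between BORG and parental cells, with the BORG/sgTRIM28 arrays on the left, BORG in the middle and parental on the right. Points are arrays and lines are means of 2; both BORG arrays lie above both parental arrays for all genes but Kdm3a, where they lie below.

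Genes of hypoxia signalling and its regulation held 1 call, a fall. Of 8 members, 0 were higher and 1 was lower, and their median difference was -0.11. Kdm3a, a histone demethylase and textbook hypoxia target, had log2 signals of 8.35 and 8.11 in BORG cells, against 8.84 and 8.90 in parental cells (difference -0.64, standard error 0.13, adjusted p = 0.0376 from limma). Its call was lost when any 1 of the 6 arrays was left out, with adjusted p between 0.0616 and 0.199 (limma). Vegfa, the vascular growth factor, had 10.61 and 11.48 in BORG cells, against 11.48 and 11.52 in parental cells, so that BORG replicate 1 stood apart and replicate 2 lay at the parental level. Ddit4, an inhibitor of mTORC1, differed by -0.50, and Bhlhe40, a helix-loop-helix repressor, by -0.26. Ndrg1, Ak4, Mxi1 and Higd1a, a stress-response gene, a mitochondrial adenylate kinase, a Myc antagonist and a mitochondrial inner membrane protein, differed by 0.27, 0.35, 0.15 and 0.05, and none of them passed.

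Of the 2 glycogen genes, Gys1, the muscle-type glycogen synthase, had log2 signals of 9.63 and 9.86 in BORG cells, against 9.12 and 9.12 in parental cells, a rise of 0.63 (standard error 0.12, adjusted p = 0.0356 from limma). Gbe1, the branching enzyme, differed by 0.27 and did not pass. The call of Gys1 was lost when any 1 of the 6 arrays was left out, with adjusted p between 0.0554 and 0.182 (limma).

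The 2 BORG arrays differed from each other more than other pairs did. Among the 11 members that rose, BORG replicate 1 was above replicate 2 in 9, and the median gap between the 2 arrays of a group was 0.13 in BORG/sgTRIM28, 0.49 in BORG and 0.05 in parental cells. Over all 22180 genes the median gaps were 0.12 in BORG/sgTRIM28, 0.16 in BORG and 0.11 in parental cells. Relative to the parental mean, the glycolysis members had a median of 0.70 on BORG replicate 1 and 0.39 on replicate 2, and the other hypoxia-induced members 0.45 and 0.12. The cause was not tested.

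**Figure D3:**
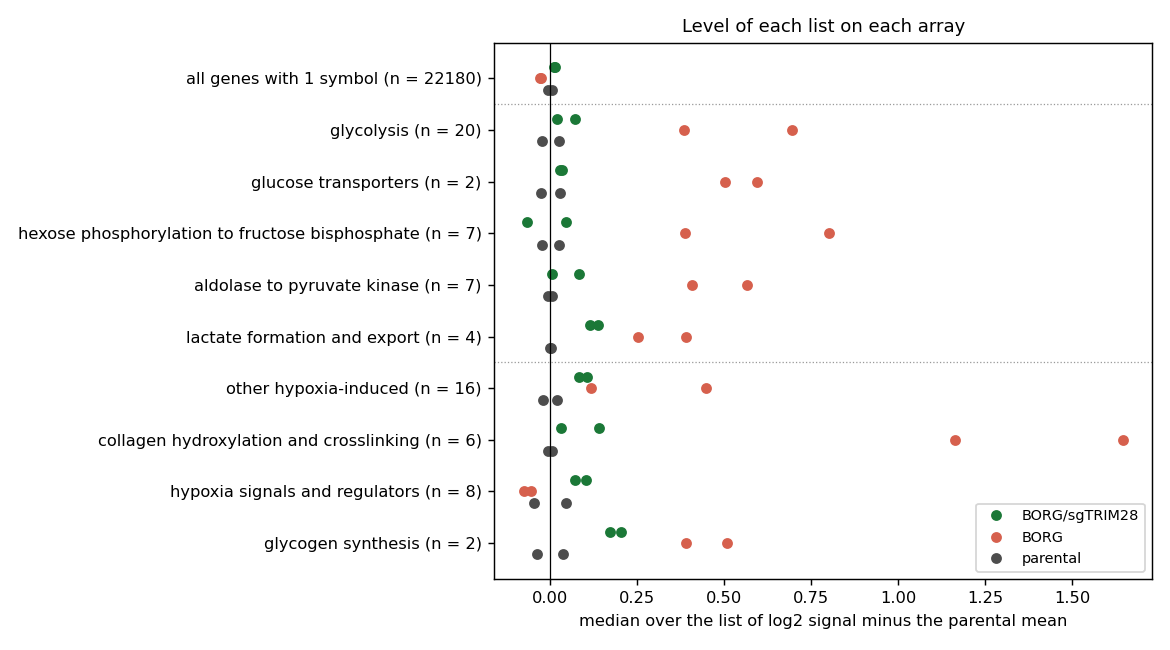
Median over each list of the log2 signal minus the parental mean (horizontal axis), per array, for the 3 groups, with the number of measured genes in parentheses. The collagen list reached 1.64 and 1.16 on the BORG arrays, the signals and regulators lay at -0.07 and -0.06, and all genes together lay near 0.

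To ask what loss of TRIM28 changed in cells that express BORG, BORG/sgTRIM28 cells were compared with BORG cells. Pfkm, Pfkp, Slc2a1, Eno2, P4ha1, P4ha2, P4ha3 and Plod1 fell in BORG/sgTRIM28 cells, with log2 differences between -2.29 and -0.88, and Kdm3a rose. Of 36 members 8 were lower, against 7.44% of all genes with 1 symbol, and 1 was higher, against 5.08%. Among genes above the median signal, 13.9% were lower and 9.25% higher. The BORG arrays are shared with the comparison above, so a high BORG value contributes to both and each is reported by its own values. The median difference was -0.42 over the glycolysis members and -0.18 over the others, against 0.06 over all genes. With each array centred on its median, 11 members were lower and 0 higher. Of the clusters called in either direction, 66.1% were lower with centring and 55.6% without it. Without either BORG/sgTRIM28 array 4 members (Pfkm, Pfkp, P4ha3 and Plod1) were lower and 0 higher, a fit with a lone BORG/sgTRIM28 array, and with 1 cluster per gene 15 were lower and 4 higher.

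In the collagen list 4 of 6 genes fell, P4ha3 furthest. P4ha3 had log2 signals of 6.63 and 6.41 in BORG/sgTRIM28 cells, against 9.09 and 8.52 in BORG cells, and fell by 2.29 (standard error 0.20, adjusted p = 0.00285 from limma). P4ha2 had 6.57 and 6.35 in BORG/sgTRIM28 cells, against 8.83 and 7.98 in BORG cells, and fell by 1.95 (standard error 0.27, adjusted p = 0.0120 from limma). Plod1 had 8.73 and 8.66 in BORG/sgTRIM28 cells, against 10.61 and 10.31 in BORG cells, and fell by 1.77 (standard error 0.14, adjusted p = 0.00177 from limma). For these 3 genes both BORG/sgTRIM28 arrays lay below both BORG arrays. P4ha1 had 9.09 and 9.02 in BORG/sgTRIM28 cells, against 10.22 and 9.97 in BORG cells, and fell by 1.04 (standard error 0.13, adjusted p = 0.00791 from limma). Plod2 had 6.35 and 6.13 in BORG/sgTRIM28 cells, against 7.56 and 6.89 in BORG cells, and did not pass (difference -0.98, standard error 0.23, adjusted p = 0.0503 from limma). Lox differed by 0.33 and did not pass. Of the 9 fibroblast genes, Col1a1 and Pdgfrb were lower in BORG/sgTRIM28 than in BORG cells, with differences of -1.29 and -1.72, and Pdgfra was higher by 0.99, while the median of the 9 was 0.15. Their part in the collagen result was not tested.

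Within glycolysis, 4 of 20 members fell and 0 rose. Pfkm had log2 signals of 6.14 and 5.83 in BORG/sgTRIM28 cells, against 8.40 and 7.80 in BORG cells, and fell by 2.12 (standard error 0.22, adjusted p = 0.00473 from limma). Pfkp had 9.18 and 9.05 in BORG/sgTRIM28 cells, against 10.42 and 10.22 in BORG cells, and fell by 1.21 (standard error 0.13, adjusted p = 0.00484 from limma). The third paralogue, Pfkl, differed by -0.58 (standard error 0.18) and did not pass. Eno2 had 7.75 and 7.44 in BORG/sgTRIM28 cells, against 8.99 and 8.43 in BORG cells, and fell by 1.12 (standard error 0.22, adjusted p = 0.0314 from limma). That call was lost when any array but BORG replicate 2 was left out, with adjusted p between 0.0651 and 0.152 (limma). Slc2a1 had 10.80 and 10.70 in BORG/sgTRIM28 cells, against 11.55 and 11.71 in BORG cells, and fell by 0.88 (standard error 0.11, adjusted p = 0.00923 from limma). For each of these 4 genes both BORG/sgTRIM28 arrays lay below both BORG arrays. That separation was found in 23.7% of all genes, in 34.8% of genes above the median signal and in 23 of the 36 members. When the signals of both Slc2a1 clusters were averaged, its difference of -0.55 did not pass (adjusted p = 0.0588 from limma).

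The remaining glycolysis members did not pass, with negative differences for Aldoc (-0.68), Slc16a3 (-0.70), Hk1 (-0.65), Pgk1 (-0.49), Pfkfb4 (-0.42), Ldha (-0.41), Pkm (-0.34), Pgam1 (-0.32), Tpi1 (-0.25), Slc2a3 (-0.15) and Gapdh (-0.08). Positive ones were found for Ldhb (0.49), Hk2 (0.46), Slc16a1 (0.42) and Pfkfb3 (0.39). The second Pgam1 cluster fell by 0.61 (adjusted p = 0.0396 from limma), so the 2 clusters of this gene disagreed on the call and not on the sign. The lactate members, with 2 values of each sign, had a median difference of 0.01.

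**Figure D4:**
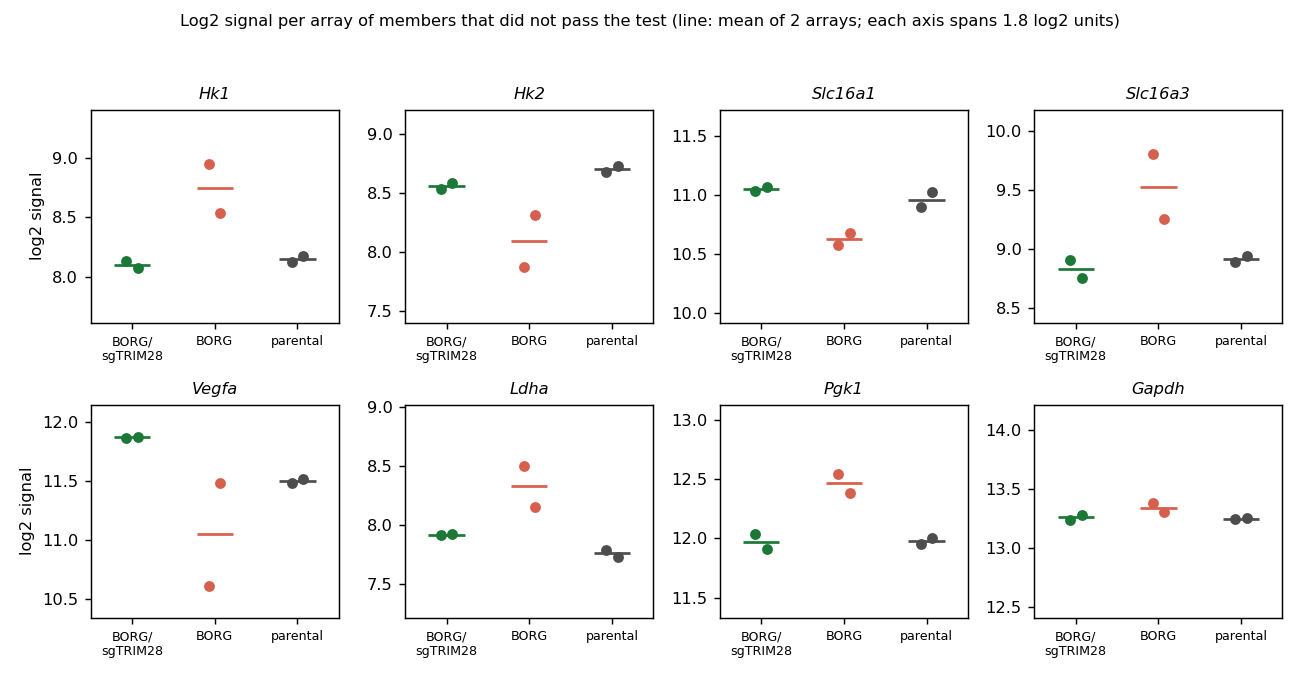
Log2 signal on each array (vertical axis, each spanning 1.8 units) of 8 members that did not pass in any comparison, with the BORG/sgTRIM28 arrays on the left, BORG in the middle and parental on the right. Points are arrays and lines are means of 2; Hk1 and Hk2, and Slc16a3 and Slc16a1, lie on opposite sides of the other groups in BORG cells, and Vegfa has 1 BORG array far below the others.

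Among the signals and regulators 1 of 8 rose and 0 fell. Kdm3a had log2 signals of 8.84 and 8.73 in BORG/sgTRIM28 cells, against 8.35 and 8.11 in BORG cells, a rise of 0.56 (standard error 0.13, adjusted p = 0.0481 from limma). That call lay close to the threshold and was lost under median centring (adjusted p = 0.0689 from limma) and when any of the 6 arrays was left out (0.0662 to 0.207). Vegfa had 11.86 and 11.88 in BORG/sgTRIM28 cells, against 10.61 and 11.48 in BORG cells (difference 0.82, standard error 0.27, adjusted p = 0.130 from limma). Bhlhe40, Ddit4, Higd1a and Ak4 differed by 0.36, 0.18, 0.15 and 0.06, and Mxi1 and Ndrg1 by -0.30 and -0.19, without passing. Gys1 and Gbe1 differed by -0.36 and -0.17 and did not pass.

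To see what remained when BORG was expressed without TRIM28, BORG/sgTRIM28 cells were compared with parental cells. Of the 36 members 0 passed in either direction by limma, where 0.162% of all genes with 1 symbol did, and 6 members had an unadjusted p under 0.05 by limma and 11 by the methods' t-test. The medians were 0.04 over the glycolysis members and 0.10 over the others. For Pfkp the difference was -0.00 (95% interval -0.31 to 0.31), for Eno2 0.04 (-0.50 to 0.57) and for P4ha2 0.07 (-0.60 to 0.74). Slc2a1 differed by 0.25 (-0.03 to 0.53), P4ha1 by 0.21 (-0.10 to 0.52), Gys1 by 0.27 (-0.02 to 0.57) and Pfkl by 0.27 (-0.16 to 0.70). These intervals are wide, and they do not show that the groups were alike.

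Some members lay off the parental level without passing the adjusted test, and examples are given here. P4ha3 had 6.63 and 6.41 in BORG/sgTRIM28 cells, against 7.43 and 7.31 in parental cells (difference -0.85, 95% interval -1.35 to -0.35, adjusted p = 0.314 from limma). Pfkm had 6.14 and 5.83 in BORG/sgTRIM28 cells, against 6.61 and 6.57 in parental cells (difference -0.60, -1.14 to -0.07). Plod1 had 8.73 and 8.66 in BORG/sgTRIM28 cells, against 9.04 and 9.04 in parental cells (difference -0.35, -0.68 to -0.02). In these 3 genes all BORG/sgTRIM28 arrays lay below the parental arrays. That separation was seen in 8 of the 36 members and in 22.0% of all genes. The opposite separation was seen in 15 of the 36 members and in 24.5% of all genes. Among genes above the median signal, the shares were 30.9% below and 26.7% above. On the other side, Ldhb differed by 0.60 (0.24 to 0.95), Plod2 by 0.53 (-0.03 to 1.08), Ak4 by 0.41 (0.06 to 0.76) and Pfkfb3 by 0.41 (0.14 to 0.67).

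Taking the 3 group means together, BORG was the highest group for 15 of 20 glycolysis members and 9 of 16 other hypoxia-induced members. This is a description with no test, and the share over all genes was not computed. Among glycolysis members the parental group was lowest in 10 of those 15 and BORG/sgTRIM28 in 5. BORG was the lowest group for Hk2, Slc16a1 and 5 of the other hypoxia-induced members.

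Related genes outside the members were counted from lists written by hand. Over all genes with 1 symbol, 5.75% were higher and 3.95% lower in BORG against parental cells. In BORG/sgTRIM28 against BORG cells these shares were 5.08% and 7.44%. Of 47 other hypoxia-induced genes, 12 passed with a rise and 6 with a fall in BORG cells relative to parental cells, and 8 with a rise and 11 with a fall in BORG/sgTRIM28 cells relative to BORG cells. The largest rises in BORG cells were those of Car9, a carbonic anhydrase that controls pH, by 4.74 (standard error 0.27), Stc1, a secreted glycoprotein, by 4.46 (standard error 0.45), Upp1, uridine phosphorylase, by 2.25 (standard error 0.14) and Egln3, a prolyl hydroxylase that marks the alpha subunits for decay, by 2.14 (standard error 0.37). The transferrin receptor gene Tfrc fell by 1.45 (standard error 0.19) and the heme oxygenase gene Hmox1 fell by 0.90 (standard error 0.11). In BORG/sgTRIM28 against BORG cells, Stc1 fell by 6.06, Car9 fell by 3.36, Upp1 fell by 2.91 and Pgf, a placental growth factor, fell by 2.13. The 47 differences of that comparison ran up to 1.63 and had a median of -0.04.

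Among 16 other genes of collagen modification and crosslinking, 5 passed with a rise and 1 with a fall in BORG cells relative to parental cells. In BORG/sgTRIM28 cells relative to BORG cells, 0 passed with a rise and 5 with a fall. Over all genes with 1 symbol, the shares were 5.75% and 3.95% in the first comparison and 5.08% and 7.44% in the second. Pcolce, which enhances procollagen cleavage, rose by 1.59 (standard error 0.18) in BORG cells, and the lysyl oxidase paralogues Loxl3 and Loxl4 by 1.32 and 0.70 (standard errors 0.18 and 0.11). Bmp1, the procollagen C-proteinase, rose by 0.91 (standard error 0.12), and P3h2, a prolyl 3-hydroxylase, fell by 0.73 (standard error 0.14). In BORG/sgTRIM28 against BORG cells, the differences were -2.73 for Loxl3, -2.19 for Pcolce, -1.23 for Loxl4 and -1.05 for Bmp1.

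Of 8 genes for the hypoxia-inducible factors and their oxygen-dependent control, 0 passed with a rise and 3 with a fall in BORG against parental cells. The shares over all genes with 1 symbol were 5.75% and 3.95%. Hif1a, the main alpha subunit, had log2 signals of 10.17 and 10.79 in BORG cells, against 11.80 and 11.79 in parental cells, a difference of -1.32 (standard error 0.20, adjusted p = 0.0191 from limma). Hif1an, which inhibits it, and Vhl, which targets it for decay, also fell, with differences of -0.83 and -0.63. In BORG/sgTRIM28 cells Hif1a had 11.99 and 12.03, a difference of 1.53 from BORG cells (standard error 0.20, adjusted p = 0.0101 from limma). Epas1, the HIF-2 alpha subunit, had 7.75 and 7.75 in BORG/sgTRIM28 cells, 6.38 and 6.24 in BORG cells and 6.33 and 6.33 in parental cells. It was the only gene of the related lists that passed against parental cells as well as against BORG cells, with differences of 1.42 (adjusted p = 0.0244 from limma) and 1.44 (adjusted p = 0.00168 from limma). Alpha subunits are controlled mainly at the protein level, which arrays do not measure.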

How the data were processed

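Affymetrix Mouse Gene 2.0 ST arrays were run on 2 samples of each of 3 groups. The authors normalized the intensities in Affymetrix Expression Console, and they deposited each array as log2 signals of 41345 transcript clusters. For its version and summarization method, nothing is given in the sources used here. Array medians ran from 5.18 to 5.24. Their number limits the precision. No detection value was used.

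Genes were named from the platform annotation, and clusters with several symbols were assigned to none. Group means were fitted over all 6 arrays with limma 3.58.1 in R 4.3.3 (3 residual and 3.04 prior degrees of freedom), and p-values were adjusted by Benjamini-Hochberg over all clusters of a comparison, with a threshold of 0.05. The fit was tested on simulated data. The methods name two-tailed Student tests and a 2-fold minimum, and this t-test was an alternative. The p-values judge group differences against the spread between arrays of the same group. They do not cover differences between lines that arise from selection or cloning. An exact permutation test of 2 against 2 arrays cannot go below p = 0.333.

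The members and lists were chosen with earlier results of these data known, so lists are described by counts and medians only. All members are named, and those called with a log2 difference of at least 1 have their value on every array. As alternatives, the replicate number was used as a block, only the 4 arrays compared were fitted, and the variance was given a trend. Arrays were quantile normalized or centred on their medians, clusters of a gene were averaged, and each array was left out in turn. The fit was also repeated on bright clusters only and on 1 cluster per gene, which re-estimated the spread that limma shares across clusters. Promoter sequences came from RefSeq.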

Additional observations from a re-analysis of the deposited data

How the results depend on the processing

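No called member changed sign under the alternatives run. In BORG against parental cells, limma called 2933 clusters, 5 glycolysis members and 7 other hypoxia-induced members. Fitting only the 4 arrays compared gave 1576 clusters and 3 glycolysis members, a variance trend gave 11 glycolysis members, clusters above the median signal gave 4486 clusters and 12 glycolysis members, and 1 cluster per gene gave 12. In BORG/sgTRIM28 against BORG cells, the counts were 3947 clusters, 4 glycolysis members and 5 others. They were 2086 clusters with 4 arrays, and the glycolysis count was 8 with the variance trend, 11 above the median signal and 13 with 1 cluster per gene. In BORG/sgTRIM28 against parental cells 50 clusters passed. That count was 1 with the replicate number as a block and with 4 arrays, 116 with the variance trend, 77 above the median signal and 135 with 1 cluster per gene, and the median of the other hypoxia-induced members moved to 0.0696 with median centring. The methods' t-test after adjustment called 0 clusters and 0 members everywhere, but with 2 arrays per group it can hardly call any. At an unadjusted p under 0.05 it passed 6181, 6413 and 4105 clusters in the 3 comparisons, and 13, 13 and 11 members. With the methods' 2-fold minimum as well, it passed 8 members as higher in the first comparison, 6 as lower in the second and 0 in the third. Subsets of clusters test fewer features by construction, and refitting them also re-estimated the shared spread. The part of each, and the cause of the other shifts, was not tested. Leaving out 1 array in turn gave 499 to 3328 clusters, 0 to 9 glycolysis members and 1 to 6 others in BORG against parental cells, with medians of 0.39 to 0.70 and 0.12 to 0.45. It gave 873 to 4132 clusters, 2 to 9 glycolysis members and 2 to 6 others in BORG/sgTRIM28 against BORG cells, with medians of -0.58 to -0.28 and -0.21 to -0.0572, the last without BORG replicate 1. Against parental cells it gave 0 to 1 clusters and medians of 0.019 to 0.0701 and 0.0544 to 0.145. Same-numbered replicates did not deviate together (correlations of -0.01, 0.04 and -0.04 over 41345 clusters), so the block was not used. With it, 9 members were higher and 0 lower in BORG against parental cells, and 0 higher and 8 lower in BORG/sgTRIM28 against BORG cells. With median centring, 66.1% of the clusters called in BORG/sgTRIM28 against BORG cells were lower, against 55.6% without it. Signal over background is unknown, and 2 arrays per group limit the precision.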

Other observations

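Of 36 other isozymes of glycolysis and gluconeogenesis outside the members, 2 passed with a rise and 2 with a fall in BORG cells relative to parental cells, where 5.75% of all genes with 1 symbol were higher and 3.95% lower. G6pc3, a glucose 6-phosphatase, and Pgm2, a phosphoglucomutase, rose by 0.90 and 0.71 on the log2 scale (standard errors 0.12 and 0.10), and Galm, aldose 1-epimerase, and Pcx, pyruvate carboxylase, fell, with differences of -1.62 and -0.95 (standard errors 0.12 and 0.10). In BORG/sgTRIM28 against BORG cells these 4 genes passed as well, with differences of -0.997 for G6pc3, -0.50 for Pgm2, 1.52 for Galm and 0.67 for Pcx. Of 18 other glycogen genes 1 rose and 1 fell in BORG cells, the phosphorylase kinase subunit Phkb by 0.61 and the muscle glycogen phosphorylase Pygm, which fell by 0.88. Of 10 genes of the pentose phosphate pathway 0 passed in any comparison by limma, with a median difference of -0.04 in BORG against parental cells. There 4 of them had an unadjusted p under 0.05 by limma and 2 by the methods' t-test, and in BORG/sgTRIM28 against BORG cells 3 by each.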
